A study of Mus musculus with 12 samples.

Results

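The 8 genes described here encode receptors of the TREM and SIGLEC families and their shared adaptor: *Trem2*, *Trem1*, *Trem3*, *Tyrobp*, *Cd33*, *Siglece*, *Siglec1* and *Cd22*. They were taken by symbol from the 55401 gene identifiers counted in 12 RNA-seq libraries of mouse microglia, and all 8 were among the 16451 genes that passed the filter on low counts. The microglia were sorted as CD45int CD11b+ cells from male mice, with 3 biological replicates in each of 4 groups, and each replicate combined cells from 3 to 4 hemispheres. WT mice were CX3CR1wt/wt:HDAC3 loxp/loxp and miKO mice were CX3CR1CreER/wt:HDAC3 loxp/loxp, so both genotypes carried the floxed *Hdac3* alleles and miKO mice alone carried the tamoxifen-dependent Cre, which is driven by *Cx3cr1* and takes the place of one *Cx3cr1* allele. The mice were given tamoxifen on 5 days from an age of 6 to 8 weeks. After at least a month they underwent transient focal cerebral ischemia (tFCI), a 60 min occlusion of the left middle cerebral artery, or the Sham operation without occlusion. Cells were isolated on day 3. The Sham groups are named WT-Sham and miKO-Sham and the stroke groups WT-tFCI and miKO-tFCI. The comparisons ask how the RNA of these receptors differed after stroke in each genotype, between genotypes at each surgery, and whether the genotype difference depended on surgery. Comparisons that share a group are not independent of each other.

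TREM receptors have short tails and signal through TYROBP, also called DAP12, a membrane adaptor whose ITAM motif is phosphorylated and recruits the kinase SYK. TREM2 binds lipids, lipoproteins and cell debris and is required for microglia to enter a phagocytic, lipid-handling state. Most SIGLEC receptors bind sialic acids on cell surfaces and carry ITIM motifs, which recruit phosphatases such as SHP-1 and damp ITAM signals, so that both families meet on the same pathway.

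Promoter sequences are shown for *Trem2* and *Cd22*, the members whose genotype difference depended on surgery, and for *Siglece*, which was lower after stroke in both genotypes. Each runs from 250 bases before to 50 bases after the RefSeq start site on the gene's own strand in GRCm38.p6. Capitals mark GAGGAA, the core bound by the macrophage factor PU.1, or the same letters read on the other strand.

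Trem2, chr17:48346151-48346450, plus strand: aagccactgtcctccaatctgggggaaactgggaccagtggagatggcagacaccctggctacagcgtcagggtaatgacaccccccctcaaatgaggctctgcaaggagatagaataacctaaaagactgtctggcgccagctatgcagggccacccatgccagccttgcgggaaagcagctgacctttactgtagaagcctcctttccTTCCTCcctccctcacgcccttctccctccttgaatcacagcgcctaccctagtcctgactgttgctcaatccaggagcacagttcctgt
Siglece, chr7:43660112-43660411, minus strand: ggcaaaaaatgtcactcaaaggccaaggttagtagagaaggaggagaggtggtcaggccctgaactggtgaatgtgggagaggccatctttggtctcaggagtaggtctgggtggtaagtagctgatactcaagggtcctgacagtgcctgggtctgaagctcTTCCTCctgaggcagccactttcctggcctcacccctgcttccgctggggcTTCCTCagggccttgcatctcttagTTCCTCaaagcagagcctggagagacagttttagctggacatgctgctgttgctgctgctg
Cd22, chr7:30878979-30879278, minus strand: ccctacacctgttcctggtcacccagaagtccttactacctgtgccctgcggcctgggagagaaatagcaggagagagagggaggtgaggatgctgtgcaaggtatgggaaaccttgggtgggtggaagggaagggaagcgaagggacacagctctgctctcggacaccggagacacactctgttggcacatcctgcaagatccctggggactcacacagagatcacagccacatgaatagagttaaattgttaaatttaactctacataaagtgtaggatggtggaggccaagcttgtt

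The core lay once in the *Trem2* window, at -40 from the start site, and 3 times in the *Siglece* window, at -87, -36 and -11, all on the strand opposite to the gene. It was not among the letters of the *Cd22* window, and 28.3% of 32851 promoter windows of this length held it on either strand. The *Trem2* window also held TGANTCA, the AP-1 motif, at -9 (7.81% of windows) and TTGCNNAA, a C/EBP motif, at 22 (10.8% of windows). The RefSeq windows of *Trem1* and *Cd33* each held the core once, at -162 and -226. No motif was weighed against expression.

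In the GENCODE annotation of GRCm38, *Trem1* (ENSMUSG00000042265, chr17:48232768-48246924), *Trem3* (ENSMUSG00000041754, chr17:48247777-48258841) and *Trem2* (ENSMUSG00000023992, chr17:48346401-48354147) lie on the plus strand in this order. *Trem1* and *Trem3* are 852 bases apart, and 87559 bases separate *Trem3* from *Trem2*. Chromosome 7 holds *Tyrobp* (ENSMUSG00000030579, chr7:30413760-30417585, plus strand) and, on the minus strand, *Cd22* (ENSMUSG00000030577, chr7:30865402-30880342), *Cd33* (ENSMUSG00000004609, chr7:43524216-43544428) and *Siglece* (ENSMUSG00000030474, chr7:43651070-43660161). *Siglec1* (ENSMUSG00000027322, chr2:131069220-131086765) is on the minus strand of chromosome 2. The values are counts over whole genes, so exons and isoforms were not told apart.

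The libraries held 7697864 to 9452222 counts on genes. *Hdac3*, the targeted gene, was lower in miKO at both surgeries, with 20.9 to 25.8 counts per 1000000 (CPM) in miKO-Sham against 34.98 to 46.4 CPM in WT-Sham, and 27.2 to 36.0 CPM in miKO-tFCI against 43.9 to 54.0 CPM in WT-tFCI (log2 fold change -0.81 and -0.71, edgeR adjusted p = 0.00281 and 0.0127). These counts cover the whole gene, including exons that Cre does not remove. Microglia markers summed to 20400 to 30800 CPM in the Sham groups, to 16300 to 18200 CPM in the WT-tFCI group and to 8190 to 16100 CPM in miKO-tFCI. Replicate 1 of each group came from sequencing batch 1 and replicates 2 and 3 from batch 2, by the labels. miKO-Sham replicates 1 and 2 were the closest pair of replicates (chi-square per degree of freedom 2.82, against 3.65 to 76.6 in the other pairs), although their labels place them in different batches. They still differed by more than counting noise and were kept apart, and results that rest on them are also given with them summed.

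CPM values are scaled by the TMM method and listed in the order of replicates 1, 2 and 3. A gene was called higher or lower where its p-value in edgeR's quasi-likelihood test, adjusted by Benjamini-Hochberg over all genes tested, was under 0.05 and its log2 fold change exceeded 0.58 in size. That test had a term for batch. For the difference between the genotype effects at both surgeries, called the interaction, the adjusted p alone decided. After stroke, 5 of the 8 members were called in WT-tFCI vs. WT-Sham (4 higher, 1 lower), where 32.6% of all genes tested were called (20.9% higher, 11.7% lower). In miKO-tFCI vs. miKO-Sham 5 members were called (2 higher, 3 lower) against 35.8% of all genes (21.9% higher, 13.9% lower). Between genotypes, 4 members were called in miKO-Sham vs. WT-Sham, all 4 higher, against 15.4% of all genes (8.58% higher, 6.8% lower). In miKO-tFCI vs. WT-tFCI 2 members were called, both higher, against 8.79% of all genes (4.08% higher, 4.71% lower). The interaction was called for 2 members, both negative, against 3.82% of all genes (1.25% positive, 2.57% negative). *Trem1* passed the filter through its tFCI libraries, so it is counted in both stroke comparisons because of the groups where it was high.

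**Figure D1:**
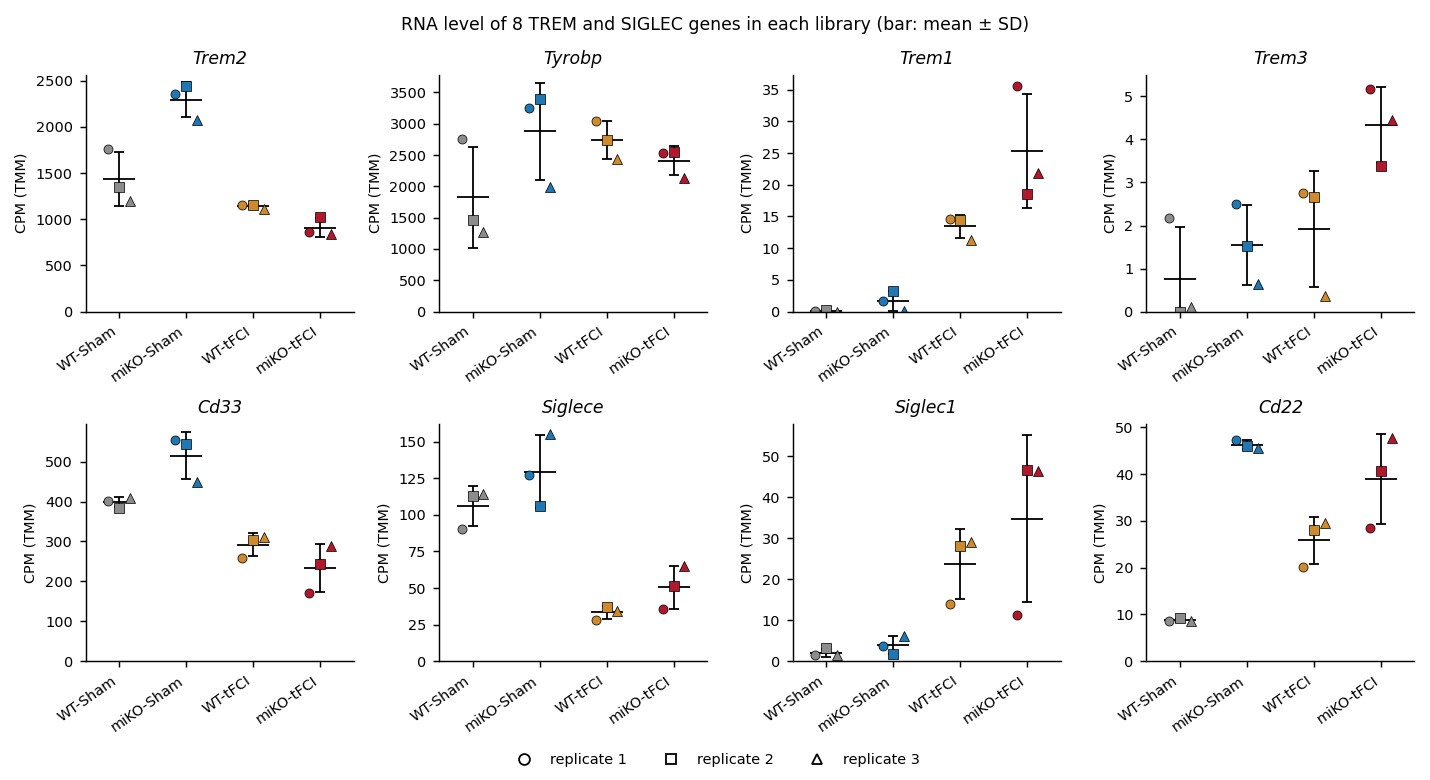
CPM of each member in each of the 12 libraries, on a linear axis from 0 for each gene, with the mean and SD of 3 replicates as bars and the replicate number as the marker shape. *Cd22* was at 45.6 to 47.3 CPM in miKO-Sham, where its mean was highest, and at 47.7 CPM in miKO-tFCI replicate 3, *Trem2* was lowest in the tFCI groups, and *Trem1* was close to 0 in WT-Sham.

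Per kilobase of annotated exon, *Tyrobp* had the highest level of the members in WT-Sham (2740 ± 1210 CPM per kb, SD, n = 3), followed by *Trem2* (291.1 ± 59), *Siglece* (57.4 ± 7.25) and *Cd33* (51.2 ± 1.67). *Siglece* and *Cd33* did not differ beyond their spread. The levels of *Cd22* (1.74 ± 0.0705 CPM per kb), *Trem3* (0.76 ± 1.23), *Siglec1* (0.296 ± 0.137) and *Trem1* (0.0383 ± 0.0374) followed, and *Trem3* overlapped with each of its neighbours in this order. In miKO-tFCI, *Tyrobp* (3610 ± 347 CPM per kb) and *Trem2* (183.7 ± 21.1) still came first, *Cd33* (30.2 ± 7.73) and *Siglece* (27.4 ± 7.89) lay within each other's spread, and *Trem1* (8.47 ± 3.01) stood beside *Cd22* (7.74 ± 1.92). Exon lengths cover all annotated transcripts of a gene, 4946 bases for *Trem2* and 667 for *Tyrobp*, so levels per kb understate genes whose main transcript is short.

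*Trem2* RNA was highest in miKO-Sham and was lower after stroke in miKO mice. It measured 1765, 1353 and 1202 CPM in WT-Sham, 2358, 2443 and 2080 CPM in miKO-Sham, 1159, 1155 and 1114 CPM in the WT-tFCI libraries, and 863.3, 1028 and 834.8 CPM in miKO-tFCI. All miKO-Sham libraries were above all others, and all miKO-tFCI libraries were below all others. *Trem2* was 1.6-fold higher in miKO-Sham than in WT-Sham (log2 fold change 0.68, SE 0.16, edgeR adjusted p = 0.00673). It was 2.52-fold lower in miKO-tFCI than in miKO-Sham (log2 fold change -1.33, SE 0.16, edgeR adjusted p = 1.58e-05). For WT mice after stroke the log2 fold change was -0.33 (95% interval -0.66 to 0.01, edgeR adjusted p = 0.112), and in miKO-tFCI vs. WT-tFCI it was -0.33 (-0.66 to 0.00, edgeR adjusted p = 0.199), so neither was called. The fitted genotype differences had opposite signs at the 2 surgeries, but only the one in Sham was called. The interaction was -1.01 (SE 0.22, edgeR adjusted p = 0.0194). The higher level in miKO-Sham kept its call with miKO-Sham replicates 1 and 2 summed (log2 fold change 0.64, edgeR adjusted p = 0.0203), as did the interaction (-0.97, edgeR adjusted p = 0.0345). The miKO-Sham call was lost without WT-Sham replicate 3 (0.55, edgeR adjusted p = 0.0634).

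Within batches, the interaction of *Trem2* was -0.84 in batch 1, where each group has 1 library, and -1.11 in batch 2. It was not called without WT-Sham replicate 2 (edgeR adjusted p = 0.0745) or 3 (edgeR adjusted p = 0.0802), nor without WT-tFCI replicate 2 or 3. In miKO-tFCI vs. miKO-Sham, 10 of 10 microglia markers were called lower (13.9% of all genes), as was *Trem2*. In WT-tFCI vs. WT-Sham, where *Trem2* was not called, 7 of 10 were called lower (11.7% of all genes). The markers did not follow *Trem2* in miKO-Sham vs. WT-Sham, where *Trem2* was called higher. There 4 of 10 were lower and 1 higher (6.8% and 8.58% of all genes). In miKO-tFCI vs. WT-tFCI, where *Trem2* was not called, 5 of 10 were lower (4.71% of all genes). The part of these markers in the *Trem2* values was not tested. In these bulk samples, fewer cells of a type and less RNA per cell cannot be told apart.

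*Tyrobp*, the adaptor of all 3 TREM receptors measured, was called higher after stroke in WT mice, where *Trem2* was not, and was not called in miKO mice, where *Trem2* was lower. Its levels were 2754, 1460 and 1268 CPM in WT-Sham, 3252, 3398 and 1991 CPM in miKO-Sham, 3046, 2748 and 2430 CPM in the WT-tFCI libraries, and 2537, 2547 and 2141 CPM in miKO-tFCI. WT-Sham replicates 2 and 3 were the lowest of all libraries, and WT-Sham replicate 1 lay within the range of the other 3 groups. *Tyrobp* was 1.56-fold higher in WT-tFCI than in the WT-Sham group (log2 fold change 0.64, SE 0.22, edgeR adjusted p = 0.032) and 1.63-fold higher in miKO-Sham than in WT-Sham (0.71, SE 0.22, edgeR adjusted p = 0.0365). Both calls depended on single libraries and on the batch term, without which the edgeR adjusted p was 0.123 for WT-tFCI and 0.154 for miKO-Sham. The miKO-Sham call was lost with miKO-Sham replicates 1 and 2 summed (0.50, edgeR adjusted p = 0.145), without either of them (edgeR adjusted p = 0.0558 and 0.168), and without WT-Sham replicate 2 or 3 (edgeR adjusted p = 0.157 and 0.194). It was also lost without WT-tFCI replicate 2 or 3 and with miKO-Sham replicate 2 in the batch of replicate 1 (edgeR adjusted p = 0.0648). The WT-tFCI call was lost without WT-Sham replicate 2 (edgeR adjusted p = 0.143) or 3 (0.19) and without WT-tFCI replicate 2 (0.143) or 3 (0.0872). In miKO-tFCI vs. miKO-Sham the log2 fold change of *Tyrobp* was -0.25 (95% interval -0.71 to 0.22, edgeR adjusted p = 0.382), and in miKO-tFCI vs. WT-tFCI it was -0.18 (-0.65 to 0.29, edgeR adjusted p = 0.647).

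The ratio of *Trem2* to *Tyrobp* in reads per kb, which needs no scaling between libraries, was 0.113 ± 0.0232 in WT-Sham and 0.112 ± 0.0252 in miKO-Sham (SD, n = 3 each). It was 0.0566 ± 0.00525 in WT-tFCI and 0.051 ± 0.00448 in miKO-tFCI. The 6 tFCI libraries lay between 0.0459 and 0.0618 and the 6 Sham libraries between 0.0864 and 0.141, without overlap. An exact permutation test of surgery within genotype, two-sided and chosen after the values were seen, gave p = 0.005, the smallest that its 400 labellings allow. The genotypes overlapped at each surgery.

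**Figure D2:**
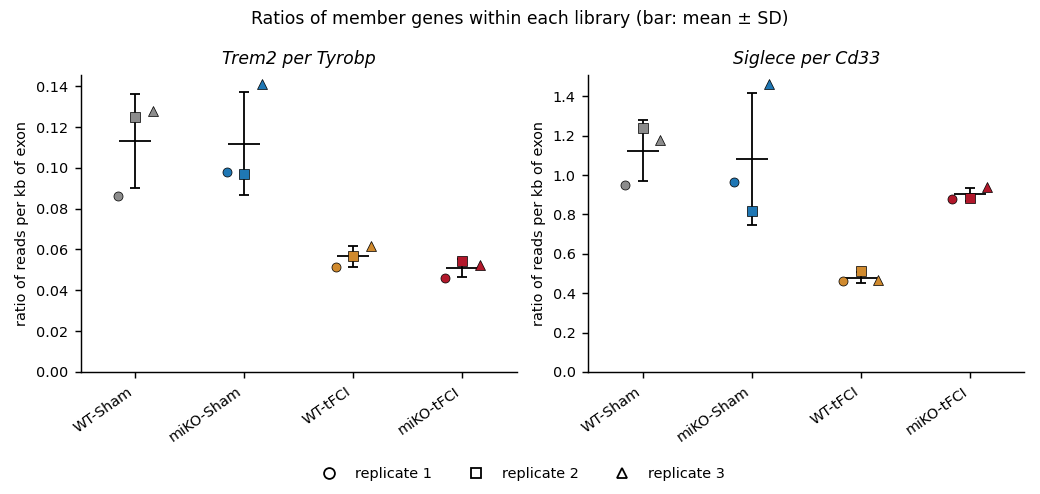
Ratio of reads per kb of exon between members in each library, for *Trem2* per *Tyrobp* and for *Siglece* per *Cd33*, with the mean and SD of 3 replicates as bars. The 6 tFCI libraries lay between 0.0459 and 0.0618 for the first ratio, below all Sham libraries, and WT-tFCI was at 0.462 to 0.51 for the second, below the 3 other groups.

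*Trem1*, a receptor of neutrophils and monocytes that amplifies inflammatory signals, was close to undetected in WT-Sham and was present after stroke. Its counts were 1, 2 and 0 in WT-Sham, 12, 23 and 1 in miKO-Sham, 122, 125 and 93 in WT-tFCI, and 345, 148 and 177 in miKO-tFCI. In CPM, *Trem1* measured 14.6, 14.4 and 11.3 in WT-tFCI and 35.6, 18.6 and 21.9 in miKO-tFCI. Both tFCI groups were above every Sham library, and the miKO-tFCI libraries were above the WT-tFCI ones.

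*Trem1* was called higher in WT-tFCI vs. WT-Sham (edgeR adjusted p = 6.58e-06), where the ratio of summed counts, scaled for depth, was 121 (exact 95% interval 41.1 to 591, for counting error only, with 3 counts in WT-Sham). It was 15-fold higher in miKO-tFCI than in miKO-Sham (log2 fold change 3.91, SE 0.51, edgeR adjusted p = 3.47e-05). *Trem1* was tested because of its tFCI libraries, so both stroke calls depend on the groups where it was high. For miKO-Sham vs. WT-Sham it was called as well (edgeR adjusted p = 0.0122), from 36 against 3 counts (ratio 14.6, exact 95% interval 4.61 to 74). miKO-Sham replicate 3, with 1 count, lay within the WT-Sham libraries, and the call was lost without miKO-Sham replicate 2 (edgeR adjusted p = 0.0681), without WT-Sham replicate 3 (edgeR adjusted p = 0.0512) and in batch 2 alone (edgeR adjusted p = 0.0557). In miKO-tFCI vs. WT-tFCI the log2 fold change was 0.88 (95% interval 0.00 to 1.75, edgeR adjusted p = 0.192) and was not called. With only these 2 groups in the fit it was called (0.87, edgeR adjusted p = 0.00499).

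*Trem3*, an activating TREM receptor of mouse macrophages, had low counts throughout. They were 18, 0 and 1 in WT-Sham, 18, 11 and 5 in miKO-Sham, 23, 23 and 3 in WT-tFCI, and 50, 27 and 36 in miKO-tFCI. The miKO-tFCI libraries had the 3 highest counts, and the other groups overlapped. *Trem3* was not called in any comparison by edgeR, whose unadjusted p ranged from 0.0505 to 0.913, or by DESeq2. Without a filter on low counts edgeR called it higher in both stroke comparisons. Its log2 fold change was 1.75 (95% interval -0.08 to 3.57) in WT-tFCI vs. WT-Sham and 1.64 (-0.004 to 3.28) in miKO-tFCI vs. miKO-Sham, so a several-fold difference was within what these counts allow. Without WT-Sham replicate 1, which held 18 of the 19 counts of its group, *Trem3* was called higher in WT-tFCI vs. WT-Sham (log2 fold change 4.49) and in miKO-Sham vs. WT-Sham (4.17).

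Markers of other myeloid cells moved with *Trem1* in part. The 10 monocyte markers summed to 46 to 117 CPM in WT-Sham, 69.8 to 212 CPM in the miKO-Sham libraries, 434 to 701 CPM in the WT-tFCI group and 644 to 1090 CPM in miKO-tFCI. *Fn1*, fibronectin, led that list at 145.6 CPM over all libraries. After stroke in WT mice *Fn1* averaged 368.9 CPM, the largest part of the sum there, against 1.93 CPM after Sham. For miKO mice its means were 205.6 CPM after stroke, below the WT mean, and 5.86 CPM after Sham. Of 10 monocyte markers, 4, among them *Fn1*, were called higher in WT-tFCI vs. WT-Sham (20.9% of all genes), and the other 6 were not called. In miKO-tFCI vs. miKO-Sham 7 were called higher (21.9% of all genes). Between the Sham groups, where *Trem1* was called higher in miKO mice, 0 of the 10 were called. The 11 neutrophil markers summed to 637 to 1360 CPM in WT-Sham, 1120 to 1140 CPM in the miKO-Sham libraries, 527 to 592 CPM in the WT-tFCI group and 987 to 1290 CPM in miKO-tFCI. *Csf3r*, the receptor of granulocyte colony-stimulating factor, made up the largest part of that sum at 485.4 CPM over all libraries and was called lower after stroke in both genotypes. Of 10 neutrophil markers tested, 6 were called higher in miKO-tFCI vs. WT-tFCI (4.08% of all genes), among them *S100a8* (log2 fold change 2.30, SE 0.67). In miKO-tFCI vs. miKO-Sham 4 were called higher (21.9% of all genes). Against WT-Sham, 1 neutrophil marker, *Mmp9*, was called higher in WT-tFCI (20.9% of all genes), as it was in miKO-Sham (8.58% of all genes). *Ly6g*, named after its values were seen, was at or below 0.742 CPM in every library. Within the WT-Sham group, replicate 1 was highest in the neutrophil and monocyte sums and in *Trem3*. The part of these markers in the values of *Trem1* and *Trem3* was not tested.

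**Figure D3:**
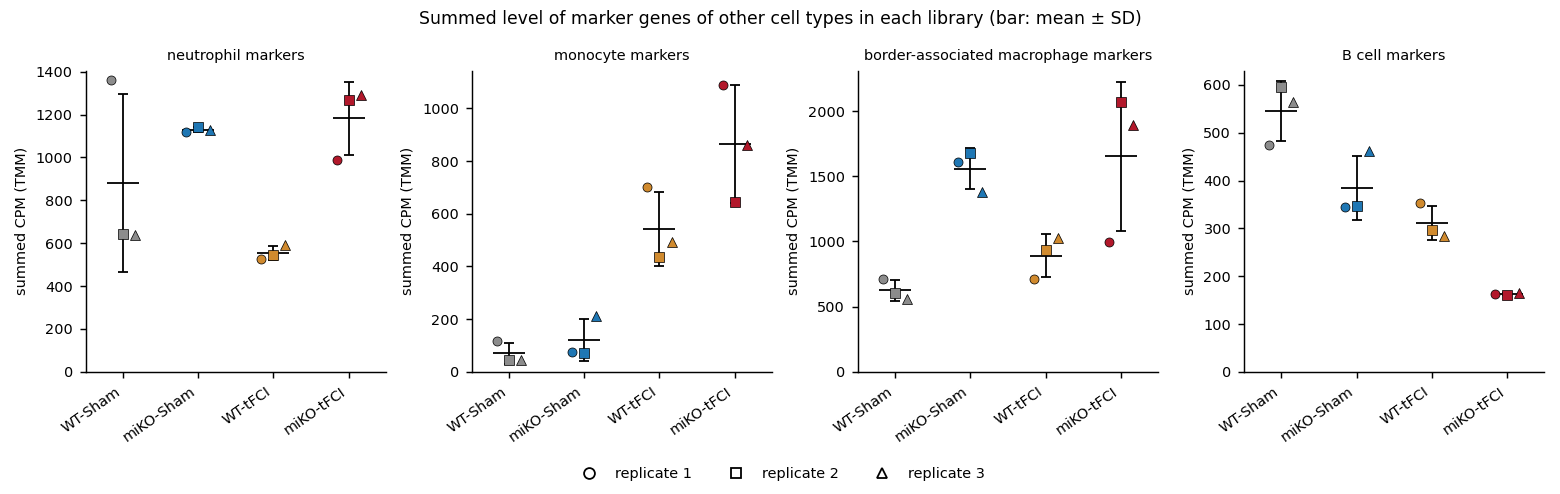
Summed CPM of 11 neutrophil, 10 monocyte, 10 border-associated macrophage and 10 B cell markers in each library, with the mean and SD of 3 replicates as bars. The monocyte sum was 434 to 1090 CPM in the tFCI libraries and 46 to 212 CPM in the Sham libraries, and the B cell sum was lowest in miKO-tFCI at 160 to 164 CPM.

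*Cd33*, a sialic acid-binding receptor of myeloid cells, was lower after stroke in miKO mice. It measured 402.3, 383.7 and 408.6 CPM in WT-Sham, 553.5, 544.2 and 448.3 CPM in miKO-Sham, 259.2, 304.4 and 312.1 CPM in the WT-tFCI libraries, and 170.6, 243.3 and 289.8 CPM in miKO-tFCI. The 4 groups were in the same order as for *Trem2*, and the tFCI libraries lay below all Sham libraries. In miKO-tFCI vs. miKO-Sham, *Cd33* was 2.23-fold lower (log2 fold change -1.16, SE 0.17, edgeR adjusted p = 8.66e-05). In WT-tFCI vs. WT-Sham it was 1.37-fold lower with an edgeR adjusted p of 0.0403 but a log2 fold change of -0.46 (SE 0.17), inside the limit of 0.58, and it was not called. The genotype differences were 0.38 in Sham (95% interval 0.03 to 0.73, edgeR adjusted p = 0.134) and -0.33 after tFCI (-0.68 to 0.03, edgeR adjusted p = 0.23), and the interaction of -0.70 (SE 0.23, edgeR adjusted p = 0.122) was not called.

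*Siglece*, an inhibitory receptor of mouse microglia and neutrophils, was lower after stroke in both genotypes. Its levels were 90.6, 113 and 114.6 CPM in WT-Sham, 127.2, 105.9 and 155.6 CPM in miKO-Sham, 28.5, 36.9 and 34.6 CPM in the WT-tFCI libraries, and 35.7, 51.1 and 64.9 CPM in miKO-tFCI. Every tFCI library was below every Sham library, whereas the genotypes overlapped at both surgeries. *Siglece* was 3.18-fold lower in WT-tFCI than in WT-Sham (log2 fold change -1.67, SE 0.17, edgeR adjusted p = 4.15e-06) and 2.62-fold lower in miKO-tFCI than in miKO-Sham (-1.39, SE 0.17, edgeR adjusted p = 2.14e-05). In WT-tFCI vs. WT-Sham the change was -1.66 within each batch.

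Between the tFCI groups, *Siglece* was 1.5-fold higher in miKO-tFCI (log2 fold change 0.58, SE 0.17, edgeR adjusted p = 0.045), a call at the edge of both limits that 13 of 22 alternative settings did not keep. It was lost without any 1 of the WT-tFCI replicates (edgeR adjusted p = 0.128 to 0.178) and without miKO-tFCI replicate 2 (0.0713) or 3 (0.206). It was also lost without any 1 of the WT-Sham replicates (edgeR adjusted p = 0.0535 to 0.0706). In Sham the difference was 0.30 (95% interval -0.05 to 0.66, edgeR adjusted p = 0.237), and the interaction was 0.28 (-0.23 to 0.79, edgeR adjusted p = 0.604). The ratio of *Siglece* to *Cd33* in reads per kb was 0.479 ± 0.0266 in WT-tFCI and 0.902 ± 0.0341 in miKO-tFCI (SD, n = 3 each), without overlap. The corresponding ratios were 1.12 ± 0.155 in WT-Sham and 1.08 ± 0.337 in miKO-Sham, where the libraries overlapped (0.947 to 1.24 and 0.817 to 1.46). For the tFCI groups a two-sided exact permutation test gave p = 0.1, the smallest that 3 against 3 libraries allow. Groups without overlap always give this p, so the test adds nothing to the values.

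*Cd22*, an inhibitory SIGLEC best known on B cells and also described on microglia, had the largest genotype difference in Sham of the 7 members other than *Trem1*. It measured 8.53, 9.19 and 8.62 CPM in WT-Sham, 47.3, 46.1 and 45.6 CPM in miKO-Sham, 20.1, 28.1 and 29.5 CPM in the WT-tFCI libraries, and 28.6, 40.7 and 47.7 CPM in miKO-tFCI. The WT-Sham libraries were the 3 lowest, the miKO-Sham libraries lay close to each other, and the tFCI groups overlapped.

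*Cd22* was 5.3-fold higher in miKO-Sham than in WT-Sham (log2 fold change 2.41, SE 0.18, edgeR adjusted p = 4.9e-07), by 2.44 in batch 1 and 2.33 in batch 2. It was 2.92-fold higher in WT-tFCI than in the WT-Sham group (1.55, SE 0.18, edgeR adjusted p = 1.06e-05). In miKO-tFCI vs. miKO-Sham the log2 fold change was -0.28 (95% interval -0.62 to 0.07, edgeR adjusted p = 0.184). The interaction was -1.82 (SE 0.24, edgeR adjusted p = 0.00068), since the genotype difference was 0.59 after tFCI (SE 0.16, edgeR adjusted p = 0.0347) against 2.41 in Sham. The higher level in miKO-Sham, the increase after stroke in WT mice and the interaction were called under every alternative setting run. With miKO-Sham replicates 1 and 2 summed they included a miKO-Sham difference of 2.49 (edgeR adjusted p = 1.79e-06) and an interaction of -1.90 (edgeR adjusted p = 0.00131). The difference between the tFCI groups was at the edge of both limits and was not kept by 12 of 22 settings, among them the fits without any 1 of the WT-tFCI replicates (edgeR adjusted p = 0.0953 to 0.165), without any 1 of the WT-Sham replicates (0.0404 to 0.0628) and without miKO-tFCI replicate 2 (0.068) or 3 (0.172).

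B cell markers did not rise with *Cd22*. The 10 markers summed to 475 to 595 CPM in WT-Sham, 345 to 461 CPM in the miKO-Sham libraries, 285 to 353 CPM in the WT-tFCI group and 160 to 164 CPM in miKO-tFCI. Between the Sham groups, 3 of the 5 that could be tested were called lower (6.8% of all genes) and the other 2 were not called. *Ighm*, the heavy chain of immunoglobulin M, made up most of the sum at 298.3 CPM over all libraries.

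*Cd22* overlaps exons of *Gm29439*, a gene of the other strand (chr7:30872733-30873333), and the library kit did not mark strand. *Gm29439* had 3, 23 and 13 counts in WT-Sham and 54, 37 and 73 in miKO-Sham. It had 21, 34 and 50 counts in WT-tFCI and 36, 62 and 79 in miKO-tFCI. The reads of the 2 genes could not be told apart where they overlap, and the counts of *Cd22* itself were 71 to 84 in WT-Sham and 332 to 356 in miKO-Sham.

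*Siglec1*, or sialoadhesin, a macrophage receptor that binds sialylated cells and particles, was higher after stroke in both genotypes. It measured 1.56, 3.25 and 1.54 CPM in WT-Sham, 3.61, 1.80 and 6.28 CPM in miKO-Sham, 14.0, 28.1 and 29.1 CPM in the WT-tFCI libraries, and 11.4, 46.6 and 46.3 CPM in miKO-tFCI. All tFCI libraries were above all Sham libraries, and replicate 1 was the lowest library of each tFCI group. *Siglec1* was 11.1-fold higher in WT-tFCI than in the WT-Sham group (log2 fold change 3.48, SE 0.42, edgeR adjusted p = 1.87e-05). It was 7.88-fold higher in miKO-tFCI than in miKO-Sham (2.98, SE 0.40, edgeR adjusted p = 4.55e-05), by 1.59 in batch 1 and 3.68 in batch 2. Between the tFCI groups the difference was 0.44 (95% interval -0.28 to 1.16, edgeR adjusted p = 0.44), with -0.30 in batch 1 and 0.70 in batch 2. For miKO-Sham vs. WT-Sham it was 0.94 (-0.07 to 1.95, edgeR adjusted p = 0.197), and it was called with miKO-Sham replicates 1 and 2 summed (1.30, edgeR adjusted p = 0.0287) and without miKO-Sham replicate 2 (1.44, edgeR adjusted p = 0.0221).

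Markers of border-associated macrophages, which line the vessels and meninges, moved with *Siglec1* in part. The 10 markers summed to 558 to 713 CPM in WT-Sham, 1380 to 1680 CPM in the miKO-Sham libraries, 713 to 1030 CPM in the WT-tFCI group and 999 to 2070 CPM in miKO-tFCI, and *Stab1* made up most of the sum. Of these, 7 of 10 were called higher in miKO-tFCI vs. miKO-Sham (21.9% of all genes) and 4 of 10 in WT-tFCI vs. WT-Sham (20.9% of all genes). *Mrc1*, the mannose receptor, named after its values were seen, was not called in any comparison. It was at 17.4 CPM in miKO-tFCI replicate 1, the library low in *Siglec1*, at 142.9 CPM in replicate 2 and at 161.7 CPM in replicate 3. Not all markers of this list followed *Siglec1*. *Ms4a7* lay between 77.5 and 88.5 CPM in miKO-tFCI, and *Stab1* had its highest group mean in miKO-Sham (1381 CPM), where *Siglec1* was low. The part of these cells in the *Siglec1* values was not tested.

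**Figure D4:**
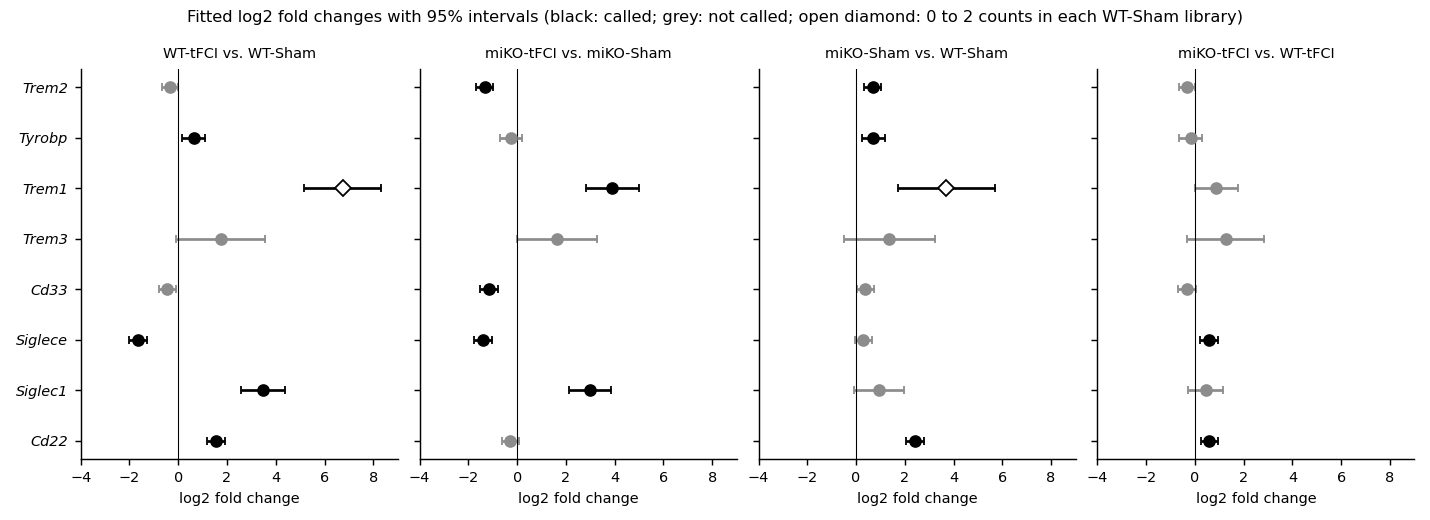
Fitted log2 fold changes of the 8 members in 4 comparisons, with 95% intervals; black symbols were called, grey ones were not, and open diamonds mark *Trem1* where each WT-Sham library held 0 to 2 counts, so that the fitted value depends on the prior count. *Siglec1* and *Trem1* were higher and *Siglece* was lower in both stroke comparisons, and *Cd22* had a log2 fold change of 2.41 in miKO-Sham vs. WT-Sham.

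Other TREM-like and paired receptors, a list of 6 genes, were called higher for 5 of 6 in WT-tFCI vs. WT-Sham and for 5 of 6 in miKO-Sham vs. WT-Sham, where the remaining gene, *Treml1*, was lower (20.9% and 8.58% of all genes were higher). Of the same 6, 1 was higher and 1 lower in miKO-tFCI vs. miKO-Sham, and 1 was higher in miKO-tFCI vs. WT-tFCI. *Pilra*, an inhibitory receptor, measured 25.5 ± 2.4 CPM in WT-Sham, 163.9 ± 53.3 CPM in miKO-Sham, 48.0 ± 4.68 CPM in the WT-tFCI group and 69.0 ± 14.4 CPM in the miKO-tFCI group (n = 3 each, SD). Its interaction was -2.15 (SE 0.31, edgeR adjusted p = 0.00155), and its highest group mean, as for *Cd22*, was in miKO-Sham. *Treml2* rose from 7.33 ± 2.35 CPM in the WT-Sham group to 34.7 ± 5.84 CPM in WT-tFCI (log2 fold change 2.25, SE 0.18, edgeR adjusted p = 3.24e-07). *Pilrb1* and *Pilrb2* are near-identical copies whose counts are uncertain. *Treml4*, *Pilrb1* and *Pilrb2*, among the genes called higher in both of these comparisons, were near the floor. They had 2, 7 and 14 summed counts in WT-Sham and 28, 39 and 47 in WT-tFCI.

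Of the other SIGLEC genes, 4 of 5 were tested. *Siglech*, a TYROBP-coupled receptor typical of microglia, fell in each of the 4 comparisons, from 1772 ± 42.8 CPM in the WT-Sham group to 749.6 ± 121 CPM in miKO-Sham, 886.5 ± 52.7 CPM in the WT-tFCI group and 265.3 ± 20.1 CPM in the miKO-tFCI group (n = 3 each, SD). *Siglecf*, an inhibitory receptor of eosinophils and activated microglia, went from 20.4 ± 6.13 CPM in the WT-Sham group to 170.8 ± 14.2 CPM in miKO-Sham (log2 fold change 3.09, SE 0.26, edgeR adjusted p = 1.29e-06). It was at 26.4 ± 4.57 CPM in the WT-tFCI group and 57.3 ± 23.9 CPM in miKO-tFCI, with an interaction of -2.01 (SE 0.35, edgeR adjusted p = 0.00449). *Mag*, the SIGLEC of myelin, was called lower in WT-tFCI vs. WT-Sham (log2 fold change -0.63, SE 0.14) and in miKO-Sham vs. WT-Sham (-0.74, SE 0.14), and *Siglecg* averaged 4.15 CPM over all libraries and was lower in miKO-Sham vs. WT-Sham (-2.05, SE 0.61).

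Among 8 tested receptors and adaptors that use TYROBP or its neighbour HCST, 5 were called higher in WT-tFCI vs. WT-Sham (20.9% of all genes) and 5 higher and 1 lower in miKO-tFCI vs. miKO-Sham (21.9% and 13.9% of all genes). Between genotypes, 3 were higher in Sham (8.58% of all genes) and 5 after tFCI (4.08% of all genes). Of these 5, *Sirpb1b*, *Sirpb1c* and *Klrk1* had 1 to 7 summed counts in each Sham group and passed the filter through tFCI libraries. *Klrk1* had 108, 2 and 13 counts in miKO-tFCI, so its call rests mainly on replicate 1. *Sirpb1b* and *Sirpb1c* were also among those higher after stroke in both genotypes, and *Klrk1* in miKO mice. *Hcst*, the adaptor DAP10, whose gene lies 126 bases from *Tyrobp*, was higher in WT-tFCI vs. WT-Sham (log2 fold change 1.11, SE 0.23, edgeR adjusted p = 0.00139) and in miKO-Sham vs. WT-Sham (1.38, SE 0.23, edgeR adjusted p = 0.000531). Its interaction was -1.28 (SE 0.31, edgeR adjusted p = 0.0336). *Cd300ld* was higher in WT-tFCI (2.64, SE 0.34) and in miKO-Sham (2.81, SE 0.34) than in WT-Sham.

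Of 25 ITAM signalling genes downstream of TYROBP, 4 were called higher and 3 lower in WT-tFCI vs. WT-Sham, no more than the 32.6% of all genes called there. Stroke in miKO mice gave 3 higher and 12 lower, where 21.9% of all genes were higher and 13.9% lower, and the median log2 fold change was -0.54 against 0.03 over all genes tested. There the kinase *Lyn* (-0.60, SE 0.18) and the adaptor *Lcp2* (-0.61, SE 0.18) fell. In miKO-Sham vs. WT-Sham 4 were higher, among them *Lyn* (0.77, SE 0.18), *Lcp2* (0.90, SE 0.18) and the adaptor *Lat2* (0.91, SE 0.15), and 4 lower (all genes 8.58% and 6.8%). Between the tFCI groups 1 was higher and 5 lower in miKO mice (all genes 4.08% and 4.71%).

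Of 10 genes downstream of ITIM motifs, 2 were called higher and 3 lower in WT-tFCI vs. WT-Sham (all genes 20.9% and 11.7%). After stroke in miKO mice 1 was higher and 5 lower (all genes 21.9% and 13.9%), with a median log2 fold change of -0.66. The genes that fell included *Ptpn6*, which encodes SHP-1 (-0.92, SE 0.15), and *Inpp5d*, which encodes the lipid phosphatase SHIP (-0.97, SE 0.18). In miKO-Sham vs. WT-Sham *Ptpn6* was higher (0.87, SE 0.15, edgeR adjusted p = 0.000864). Its levels were 519.1 ± 109 CPM in WT-Sham, 935.5 ± 173 CPM in miKO-Sham, 473.8 ± 50.6 CPM in the WT-tFCI group and 502.0 ± 96.4 CPM in the miKO-tFCI group (n = 3 each, SD). The interaction of *Ptpn6* was -0.80 (SE 0.21, edgeR adjusted p = 0.0498).

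The list of 11 genes of TREM2 shedding holds enzymes that cut the receptor from the cell surface and process the stump, their partners and an inhibitor. Of the 11, 3 were called higher in WT-tFCI vs. WT-Sham (20.9% of all genes) and 4 in miKO-tFCI vs. miKO-Sham (21.9% of all genes). In miKO-Sham vs. WT-Sham 2 were higher and 2 lower (8.58% and 6.8% of all genes). The counts after stroke are near the shares over all genes. The inhibitor, *Timp3*, was among the higher genes in each of these comparisons. *Adam10*, a sheddase of TREM2, was lower in miKO-Sham (log2 fold change -0.73, SE 0.23, edgeR adjusted p = 0.0389). *Rhbdf2*, a partner of the sheddase ADAM17, was higher in WT-tFCI (1.46, SE 0.18) and in miKO-Sham (1.35, SE 0.18) than in WT-Sham.

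Of 23 tested genes that make, attach or remove sialic acid, the ligand of SIGLEC receptors, 6 were called higher and 4 lower in WT-tFCI vs. WT-Sham (all genes 20.9% and 11.7%), and 4 higher and 3 lower in miKO-tFCI vs. miKO-Sham (all genes 21.9% and 13.9%), near the shares over all genes. In miKO-Sham vs. WT-Sham 6 were lower (all genes 6.8%), and between the tFCI groups 2 were lower (all genes 4.71%). The sialyltransferase *St3gal5*, which starts ganglioside synthesis, was lower in miKO-Sham (-1.27, SE 0.16, edgeR adjusted p = 4.57e-05) and in miKO-tFCI vs. WT-tFCI (-0.59, SE 0.16, edgeR adjusted p = 0.0259). *St3gal2* was lower in miKO at both surgeries (-1.35, SE 0.18, in Sham and -0.78, SE 0.18, after tFCI). *St3gal6* was lower after stroke in both genotypes (-1.19, SE 0.18, in WT and -1.51, SE 0.18, in miKO).

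The 14 genes listed for the phagocytic, lipid-handling state of microglia do not all depend on TREM2. Most of them were called higher in each of the 4 comparisons. *Trem2* itself was called higher in miKO-Sham vs. WT-Sham, lower in miKO-tFCI vs. miKO-Sham and in neither direction in the others. All 14 of the list were called higher in WT-tFCI vs. WT-Sham, with a median log2 fold change of 2.88 against 0.02 over all genes tested, of which 20.9% were higher. A total of 11 were higher and 2, *Cd9* and *Clec7a*, lower in miKO-tFCI vs. miKO-Sham (median 1.44), where 21.9% of all genes were higher. In miKO-Sham vs. WT-Sham 12 of 14 were higher (median 2.07, all genes 8.58%), and in miKO-tFCI vs. WT-tFCI 9 were higher and 1 lower (median 1.03, all genes 4.08% higher). *Spp1*, osteopontin, went from 2.65 ± 1.15 CPM in the WT-Sham group to 6030 ± 986 CPM in WT-tFCI (SD, n = 3 each). *Cd9*, a tetraspanin, was at 783.4 ± 56.6 CPM in WT-Sham, 3379 ± 209 CPM in miKO-Sham, 1194 ± 33.2 CPM in the WT-tFCI group and 1752 ± 275 CPM in the miKO-tFCI group (n = 3 each, SD), and its interaction was -1.56 (SE 0.21, edgeR adjusted p = 0.000761). *Ctsb*, cathepsin B, was higher in miKO-Sham (2.00, SE 0.20) and in WT-tFCI (1.76, SE 0.20) than in WT-Sham and higher in miKO-tFCI than in WT-tFCI (0.95, SE 0.20, edgeR adjusted p = 0.00745).

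The genes whose pattern over the 12 libraries lay closest to that of a member were found by the root-mean-square difference in centred, batch-adjusted log2 CPM. For *Trem2* they included *Tnfaip8l2* (0.13 log2 units) and *Ypel3* (0.15), where *Trem2* itself had an SD of 0.53 over the libraries. For *Cd22*, with an SD of 0.97, they were *C5ar1* (0.18), *Mmd* (0.19) and *Plaur* (0.19). For *Siglece* (SD 0.85) they were *Prkab1* (0.16), *Dusp7* (0.18) and *Gm37297* (0.18), and for *Cd33* (SD 0.49) *Hmgxb3* (0.09), *Scamp2* (0.10) and *9130019P16Rik* (0.13). *Siglec1* (SD 1.77) was nearest to *Vsig4* (0.38), *Cmpk2* (0.45) and *Rmi2* (0.46), and *Tyrobp* (SD 0.39) to *Bri3* (0.11), *Clta* (0.12) and *Pfdn5* (0.14). *Trem1* (SD 2.71) was nearest to *Cldn5*, a marker of endothelial cells (0.44), *Igfbp6* (0.53) and *Itm2a* (0.62). The 9 markers of neurons, astrocytes and endothelial cells, among them *Cldn5*, summed to 19.2 to 30 CPM in the Sham libraries, 62 to 201 CPM in the WT-tFCI group and 156 to 431 CPM in miKO-tFCI, and their part in the *Trem1* values was not tested.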

How the data were processed

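The authors trimmed the reads, aligned them and counted them per gene, and the counts were deposited without normalization. The submitters' processing notes name FastQC 0.11.9, Trim Galore, HISAT2 2.2.1, SAMtools, HTSeq 1.99.2 and the builds mm10 and GRCm38.p6. Reads on genes were 30.68 to 38.53% of those tallied, and the closing lines for all other reads were left out. Symbols came from GENCODE M21, which matched 55141 of 55401 identifiers, and promoters from RefSeq (5 of 8 members matched, not *Tyrobp*, *Trem3* and *Siglec1*). Counts were fitted in R 4.3.3 with edgeR 4.0.16 (filterByExpr, TMM factors 0.8643 to 1.111, quasi-likelihood test) on group and batch over all 12 libraries, with 7 residual degrees of freedom, and p-values were adjusted over 16451 genes tested. The steps were also run on simulated counts that had no batch effect and changes in miKO-tFCI alone, a simpler setting than these data. That run does not speak to batch effects or to genes near 0 counts. CPM, ratios and lists were computed from the same counts, log2 CPM with a prior count of 2, and 0.58 is the study's fold limit. Counting error is large for *Trem1* and *Trem3*, and intervals on summed counts cover counting error only. The members and lists were chosen with earlier results of these data known. At most 4 genes per list were named, those with the highest mean CPM among those called in any comparison, and for each called member the 3 genes most like it. Genes outside this rule, such as *Treml1*, *Pilrb1*, *Clec7a*, *Mmp9*, *Ly6g*, *Mrc1*, *Ms4a7*, *Sirpb1b*, *Sirpb1c*, *Klrk1* and *Gm29439*, were chosen after their values were seen. Some genes that the rule names are not reported here. Alternatives were DESeq2 1.42.0, other size factors, other filters, no batch term, a replicate block, fewer samples and each library left out. Summing miKO-Sham replicates 1 and 2, or moving replicate 2 to the batch of replicate 1, was added after the data were seen.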

Additional observations from a re-analysis of the deposited data

Results flagged for a closer look

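The genotype difference of 2 members depended on surgery by the test of the interaction itself. For *Trem2* the interaction was -1.01 on the log2 scale. Its level was higher in miKO than in WT after the Sham operation, and all miKO-tFCI libraries lay below all WT-tFCI libraries. That difference after tFCI was not called (-0.33, edgeR adjusted p = 0.199). The interaction of *Trem2* was not called without WT-Sham replicate 2 or 3, nor without WT-tFCI replicate 2 or 3. For *Cd22* it was -1.82, since miKO-Sham exceeded WT-Sham by 2.41 and miKO-tFCI exceeded WT-tFCI by 0.59. The cause of either difference was not tested.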

How the results depend on the processing

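Over 22 alternative settings, 23 of 40 member results (8 members in 4 comparisons and the interaction) kept their direction and their call wherever they could be fitted. The members called in both stroke comparisons stayed within 1.5 times their counts of 5. In miKO-tFCI vs. WT-tFCI, where 2 members were called, 1 was called without a filter on low counts (*Trem1*) and with only the 2 groups in the fit (*Trem1*), and 0 without a batch term and in batch 2 alone, where edgeR gave 2 and 3 members an unadjusted p under 0.05 and DESeq2 in all libraries called 2. Leaving out 1 library at a time gave 0 to 2 in that comparison, 1 to 5 in miKO-Sham vs. WT-Sham (1 without WT-Sham replicate 3, *Cd22*) and 1 to 3 in the interaction, which gave 5 without a filter. The cause was not tested. The samples were not treated as pairs by replicate number. Deviations from group means were correlated between libraries with the same number by 0.0978 to 0.666 for replicate 1. For replicates 2 and 3 these correlations were -0.0607 to 0.334 and 0.11 to 0.324. They were not over 0.1 in every pair, and the negative ones all involved miKO-Sham replicate 2. Such correlations cannot exclude a pairing. Under the replicate block, 1 member (*Cd22*) was called in miKO-tFCI vs. WT-tFCI and the counts of the other comparisons did not change. The interaction of *Trem3*, -0.11, turned to 0.11 without a batch term, to 0.11 under the replicate block, to 0.40 with miKO-Sham replicate 2 in the batch of replicate 1 and to 0.39 with replicates 1 and 2 summed. It ranged from -2.98 to 0.81 without 1 library. *Tyrobp* in miKO-tFCI vs. miKO-Sham, -0.25, was -0.42 to 0.01 without 1 library, the latter without miKO-Sham replicate 2. Depth limited *Trem1* in Sham, with 3 counts in WT-Sham, and *Trem3* throughout.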
